A study of Mus musculus with 7 samples.

Results

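The second step of postnatal retinal maturation, from P10 to P28 (postnatal days 10 and 28), was examined for histone H3 lactylated at lysine 18 (H3K18La). All libraries of the 2 ages were taken by their labels, which gave 2 libraries at P10 and 3 at P28, or 5 of the 7 samples of the series, and all 108253 merged peaks were compared. H3K18La was mapped by CUT&Tag, in which an antibody directs a protein A-tethered enzyme to the mark so that the nearby DNA is released and sequenced. Every library came from retinas of C57Bl/6J mice, dissociated with papain, and the number of animals behind a library was not given in the sources used here. P28 replicate 1 was the single library of batch 2, and the other 4 libraries were of batch 1, so results are given with and without it. The 2 libraries of P4 retina entered the fit for the estimate of spread only.

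Lysine lactylation is a histone modification whose acyl group derives from lactate, and H3K18La is commonly found at active promoters and at enhancers. The retina makes much lactate because photoreceptors ferment glucose even when oxygen is present. Between P10 and P28 the mouse opens its eyes, the last progenitors have already left the cell cycle, rods elongate their outer segments, and the ribbon synapses of photoreceptors and bipolar cells mature.

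Depth limited the P10 side of every comparison. The P10 libraries held 199970 and 660740 reads in peaks and the P28 libraries 1615969, 8274373 and 3304783. No read was found at 45.8% and 22.1% of the peaks in the P10 libraries, against 9.55%, 1.44% and 6.10% at P28. No pair of replicates looked like 1 library deposited in duplicate, since the chi-square per degree of freedom was 1.25 for the P10 pair and 1.11 to 1.35 for the P28 pairs. Of the retinal marker lists, 35 of 40 rod genes, 14 of 15 cone genes, 17 of 24 Mueller glia genes, 13 of 22 bipolar genes, 10 of 21 ganglion cell genes and 10 of 24 amacrine and horizontal genes had a promoter peak. Of the lists of other cells, 8 of 15 astrocyte and oligodendrocyte, 7 of 17 pigment epithelium, 4 of 12 lens, 6 of 20 vessel and 1 of 17 microglial genes had one. In whole tissue, fewer cells of a type and less of the mark per cell cannot be told apart.

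The sequence just upstream of a few promoters is shown first, as examples of genes described below. These few windows do not show how rises and falls differ in CG number, which is given below for all measured promoters. Each line holds the 150 bases before the RefSeq transcription start site (GRCm38.p6), 5′ to 3′ on the strand of the gene, with every CG dinucleotide in capitals. Tmem170 (chr8:111876676-111876825, minus strand), Git1 (chr11:77493138-77493287, plus strand) and Rcan1 (chr16:92466170-92466319, minus strand) were the largest promoter rises with a start site inside the peak.
Tmem170: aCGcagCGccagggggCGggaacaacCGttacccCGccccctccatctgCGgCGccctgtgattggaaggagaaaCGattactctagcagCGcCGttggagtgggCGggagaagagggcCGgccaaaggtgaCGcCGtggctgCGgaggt
Git1: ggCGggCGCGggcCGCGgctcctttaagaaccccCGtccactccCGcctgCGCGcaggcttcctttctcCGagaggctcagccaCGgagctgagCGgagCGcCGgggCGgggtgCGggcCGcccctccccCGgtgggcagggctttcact
Rcan1: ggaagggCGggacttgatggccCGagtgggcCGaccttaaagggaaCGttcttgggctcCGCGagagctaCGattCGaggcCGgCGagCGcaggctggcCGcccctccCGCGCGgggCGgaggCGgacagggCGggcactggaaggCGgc
These windows held 15, 18 and 19 CG dinucleotides. Hk2, a glycolytic gene that rose (chr6:82774455-82774604, minus strand), held 15. Guca1a, a phototransduction gene that rose (chr17:47400607-47400756, minus strand), held 3.
Hk2: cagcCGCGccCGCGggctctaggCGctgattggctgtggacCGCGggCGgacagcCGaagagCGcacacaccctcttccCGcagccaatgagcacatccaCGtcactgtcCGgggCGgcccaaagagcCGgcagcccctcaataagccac
Guca1a: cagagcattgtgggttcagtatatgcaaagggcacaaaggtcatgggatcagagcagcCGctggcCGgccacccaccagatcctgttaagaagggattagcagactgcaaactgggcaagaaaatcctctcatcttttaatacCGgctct
Slitrk2 (chrX:66653009-66653158, plus strand) and Slitrk5 (chr14:111675877-111676026, plus strand), which encode synaptic adhesion proteins, were the largest falls for which the RefSeq table places a start site inside the peak, and held 11 and 14.
Slitrk2: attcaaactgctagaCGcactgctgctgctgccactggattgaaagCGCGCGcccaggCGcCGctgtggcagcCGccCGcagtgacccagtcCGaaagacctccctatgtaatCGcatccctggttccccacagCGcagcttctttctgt
Slitrk5: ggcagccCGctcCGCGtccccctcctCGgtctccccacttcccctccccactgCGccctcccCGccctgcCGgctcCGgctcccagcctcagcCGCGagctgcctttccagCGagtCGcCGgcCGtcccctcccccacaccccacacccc

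To ask where in the genome the mark moved, the reads in peaks were first divided by peak class. Promoter peaks took 25.2% and 22.7% of the reads in peaks in the P10 libraries and 30.8%, 28.5% and 29.0% in the P28 libraries, so the groups did not overlap. The mean share was 23.9% ± 1.8 (SD, n = 2) at P10 and 29.4% ± 1.2 (SD, n = 3) at P28, a difference of 5.48 percentage points (exact permutation test, two-sided, p = 0.2, the smallest that 3 against 2 libraries can give). Without P28 replicate 1 the difference was 4.80 points. Distal intergenic peaks moved the other way, from 25.6% and 26.9% at P10 to 22.0%, 22.6% and 22.4% at P28, again without overlap. Introns, which held more peaks than any other class, took 39.1% and 40.3% at P10 and 37.6%, 39.3% and 39.2% at P28, where the groups overlapped. The peak set was merged over the ages. The study called more peaks, and more genes with a promoter peak, at P28 than at P10. Promoter peaks could thus enter the set through their P28 level, which can raise the P28 values of promoters here and below. The part of this choice in the promoter share and the mean levels was not tested.

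**Figure D1:**
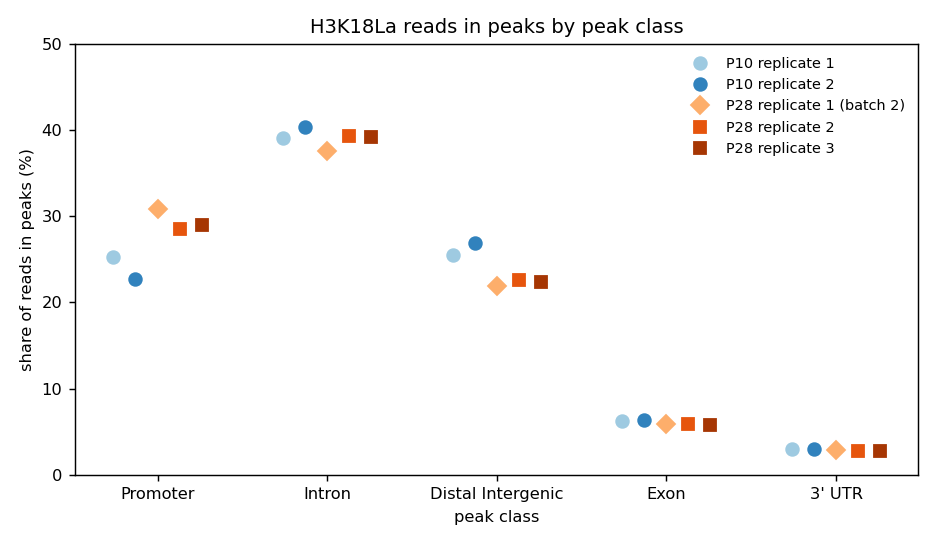
Share of the reads in peaks (%) in each of the 5 most populated peak classes, 1 point per library, with circles for P10, squares for P28 and a diamond for P28 replicate 1 of batch 2. All 3 P28 libraries lie above both P10 libraries in promoters (28.5% to 30.8% against 22.7% to 25.2%) and below them in distal intergenic peaks.

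On the deposited RPKM scale, the mean over the 17144 promoter peaks was 3.77 and 4.93 at P10 and 5.66, 6.27 and 7.18 at P28. The mean over the 35496 distal intergenic peaks was 2.63 and 3.91 at P10 and 2.62, 3.23 and 3.58 at P28. Promoters were thus 1.46-fold higher at P28 in mean level, without overlap, while the distal means overlapped. Over all peaks the median change was 0.39 in log2(RPKM + 1), which was 0.27 after scaling to reads in peaks, 0.11 after median centring, -0.02 after quantile normalization and -0.14 by voom, a weighted model of the recovered reads. Promoters stood above other peaks within each library, with an excess of the median log2(RPKM + 1) of 0.59 and 0.37 at P10 and 0.78, 0.71 and 0.79 at P28. This excess was 0.28 higher at P28 (exact permutation p = 0.2) and 0.27 higher without P28 replicate 1. It was 0.17 higher without P10 replicate 2.

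Peaks were next tested singly with limma, with Benjamini-Hochberg adjustment over all of them. At an adjusted p under 0.05, 10942 peaks (10.1%) were higher at P28 and 3523 (3.25%) were lower. Of the promoter peaks 2402 rose and 171 fell, while of the distal intergenic peaks 2614 rose and 1667 fell. Promoters made up 22.0% of the rises and 4.85% of the falls, against 15.8% of all peaks. Outside promoters, too, rises outnumbered falls on the deposited scale, with 8540 of 91109 peaks higher (9.37%) and 3352 lower (3.68%). The median change of these peaks was 0.33 on that scale and -0.30 by voom, so their direction depended on the method. In promoter peaks it was 0.67 and 0.50. At the 0.01 level used by the study over the 3 ages, 2 peaks were called (0.00185%), both higher at P28, and none lower. They lay in an intergenic region near the predicted gene Gm33167 (log2 change 5.32) and in an exon of Gm48610 (4.92).

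Most rises were measured against very few P10 reads: 6050 of the 10942 had no read in either P10 library (55.3%, against 18.1% of all peaks), and 1879 had at least 5. The falls were read at both ages, with a median of 7 reads over the P10 libraries and 16 over the P28 libraries. The direction held in voom for 98.5% of the rises and for all 3523 falls, and voom called 46.9% and 99.7% of them. On its own, voom called 6573 peaks higher (6.07%) and 13973 lower (12.9%). The number of calls depended on the libraries: 4158 rises (3.84%) and 701 falls (0.648%) were called without P28 replicate 1, 1901 and 406 without P28 replicate 2, and 2540 and 556 without P28 replicate 3. Leaving out a P10 library leaves a single one at that age, so only the effect size is read for it. The median change over all peaks was 0.154 without P10 replicate 1 and 0.6 without P10 replicate 2. Rises were 75.6% of the calls on the deposited scale, 61.4% after scaling to reads in peaks, 50.6% after median centring, 41.8% after quantile normalization, 42.1% after thinning and 32.0% by voom.

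As a count only, the test was repeated on 21837 peaks whose mean RPKM over both ages would give 10 reads at the P10 depth. A peak could enter this set through its P28 level alone, so it is no support for the rises. Of these, 3373 (15.4%) were higher and 1438 (6.59%) lower at P28, with 778 and 397 at an adjusted p under 0.01. Of these rises 2957 had at least 5 reads at P10, and 7 had none.

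Promoters were then divided by their CpG content, measured as the number of CG dinucleotides in the peak over the number its base composition predicts. Mammalian promoters fall broadly into CpG islands, typical of broadly expressed and developmental genes, and CpG-poor promoters, more often tissue-specific. The 8495 CpG-rich promoter peaks (observed over expected above 0.6) had a mean of 3.77 and 4.71 RPKM at P10 and 6.45, 6.85 and 7.92 RPKM at P28, a 1.67-fold higher mean without overlap between the ages. The 5601 CpG-poor promoter peaks (up to 0.4) had 3.97 and 5.59 RPKM at P10 and 4.66, 5.61 and 6.30 RPKM at P28, where the ages overlapped. Within each library, the CpG-rich mean was 0.949 and 0.843 of the CpG-poor mean at P10, and 1.38, 1.22 and 1.26 times that mean at P28. CpG-poor promoters therefore carried the higher mean at P10 and CpG-rich promoters the higher mean at P28. This ratio does not depend on the scaling of a library, and its difference of 0.39 (exact permutation p = 0.2) was 0.34 without P28 replicate 1.

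Counts of called peaks followed the same division. Among CpG-rich promoters 1359 rose (16%) and 28 fell (0.33%), and among CpG-poor promoters 588 rose (10.5%) and 123 fell (2.20%). The median log2 change was 0.77 and 0.43. With voom these medians were 0.66 and 0.08, and without P28 replicate 1 they were 0.82 and 0.50. Very wide promoter peaks differed from the rest: among the 1421 promoter peaks over 2000 bases, mean RPKM was 7.17 and 9.17 at P10 and 8.57, 9.74 and 10.97 at P28, with overlap. The split by CpG content and by width was chosen after the values were seen, and the part of base composition in the yield of each library was not tested. CpG-rich promoter peaks, too, could enter the set through their P28 level, and the part of this in the ratio was not tested.

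**Figure D2:**
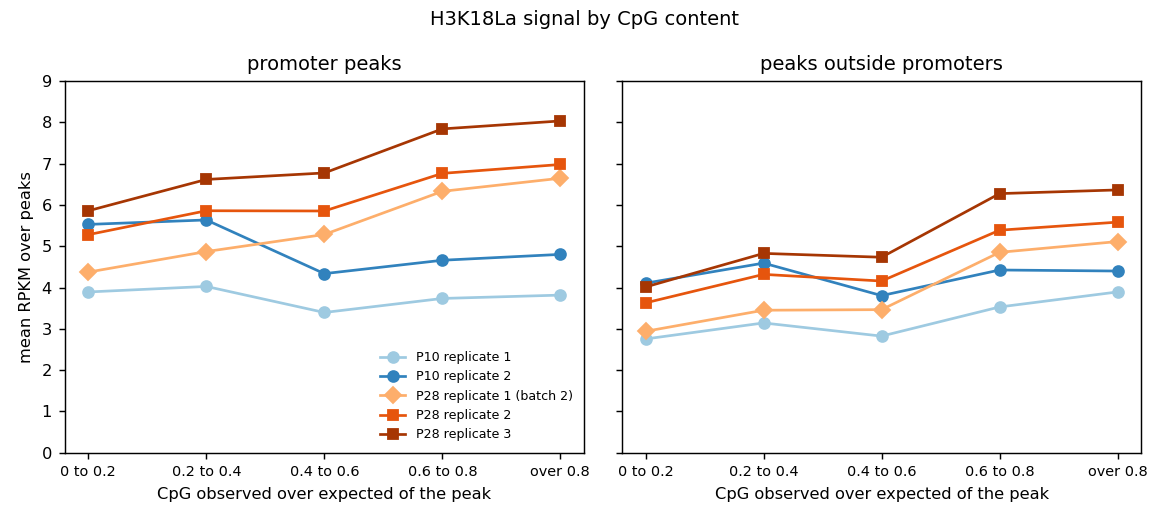
Mean RPKM over peaks (vertical axis) by the CpG observed over expected of the peak (horizontal axis), for promoter peaks (left) and peaks outside promoters (right), with 1 line per library. In promoters over 0.8 the P28 libraries lie at 6.65, 6.98 and 8.03 against 3.82 and 4.80 at P10, while in promoters up to 0.2 the ages overlap.

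In the 300-base RefSeq promoters (250 bases before to 50 after the start), 6937 of the 9956 genes with a protein-coding promoter peak had a start site inside that peak. The letters GGGCGG, the core of the GC box, searched on both strands, were found in 71.3% of the 1124 promoters that rose, in 13 of the 17 that fell (76.5%), in 67.6% of those not called and in 35.7% of all 32851 RefSeq promoters. The median number of CG dinucleotides in these windows was 22 for promoters that rose, 22 for those not called and 20 for those that fell, so the windows did not separate the groups by this number. GGGCGG itself contains CG, and how far its share follows CpG content was not tested. The letters CCGGAAG, the core of an ETS site, were found in 12.7% of the promoters that rose and 17.8% of those not called. TAATCC, the core bound by photoreceptor homeodomain factors, was found in 5.60% and 5.73%, and in 7.06% of all RefSeq promoters. Among the 21 rod genes with a start site in the peak, 5 held TAATCC, 1 of them Guca1a, whose window above has it on the opposite strand.

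Protein-coding genes were described by 1 promoter peak each, the peak nearest the start site. Of 9956 such genes, 1526 were higher (15.3%) and 50 lower (0.502%) at P28, and the median change was 0.75. By voom 1332 were higher and 171 lower. The 2 ages did not overlap at 5477 genes higher at P28 (55.0%) and 571 lower (5.74%). Without P28 replicate 1 the median change was 0.81, and 329 of the 1526 rises and 5 of the 50 falls kept their call. The median stayed positive under the other scalings, between 0.46 and 0.63, so that a gene near 0 lay below the common shift of promoters.

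Among called genes without Gm or Rik symbols, the largest promoter rises were at Tmem170, Git1, Rcan1, Naa60, Actl6a, Mef2c, Brpf3, Sgk1, Tango2 and Katnbl1. Rcan1, an inhibitor of the phosphatase calcineurin, had 0 and 5.15 RPKM at P10 and 30.3, 26.1 and 35.8 RPKM at P28 (chr16:92465793-92466710). Its mean was 11.9-fold higher, with a log2 change of 3.67 ± 0.64 (SE, adjusted p = 0.0125). Sgk1, a kinase induced by serum and glucocorticoids, had 0 and 4.51 RPKM at P10 and 20.1, 21.0 and 23.9 RPKM at P28 (chr10:21994053-21994926), a 9.61-fold higher mean (adjusted p = 0.0132). In both genes P10 replicate 1 had no read, so the P10 means and these folds rest on 6 and 5 reads in P10 replicate 2. Without P28 replicate 1 the adjusted p was 0.0535 for Rcan1 and 0.0543 for Sgk1.

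Mef2c, a transcription factor of neuronal differentiation and activity, had 1 read in each P10 library (1.37 and 0.599 RPKM) and 15.55, 20.9 and 23.9 RPKM at P28 (chr13:83573142-83574457). Its pooled read rate was 24.9 times higher at P28, with an exact 95% counting interval of 6.87 to 206, and its adjusted p was 0.0113 with all libraries and 0.0132 without P28 replicate 1. Its peak was CpG-poor, with an observed over expected of 0.238. Tmem170 had no read at P10 and 11.9, 12.96 and 15.8 RPKM at P28 (chr8:111876279-111877075), at least 2.77-fold higher than 3 reads per P10 library would give (adjusted p = 0.011). Git1, a scaffold of focal adhesions and synapses, had 0 and 1.86 RPKM at P10 and 19.2, 17.98 and 24.9 RPKM at P28 (adjusted p = 0.0113).

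The other rises without a P10 read included Actl6a, Brpf3 and Naa60. Actl6a, which encodes a BAF remodelling subunit known from neural progenitors, had no read at P10 and 10.3, 9.89 and 11.2 RPKM at P28 (chr3:32705523-32706106), at least 1.57-fold higher. Brpf3, a scaffold of histone acetyltransferase complexes, had no read at P10 and 6.79, 9.75 and 10.1 RPKM at P28, at least 1.33-fold higher. Naa60, an acetyltransferase of protein N-termini, was likewise without a read at P10 and stood at 11.2, 10.4 and 9.85 RPKM at P28. The Naa60 peak also overlapped Zfp597 in RefSeq, the Katnbl1 peak Emc4, and the Actl6a peak overlapped no RefSeq gene, so the gene behind these peaks is uncertain.

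By the same rule the largest promoter falls were at BC017158, Slitrk2, Smim5, Epo, Mzb1, Irf5, Slitrk5, Pou3f2, Cplx2 and Pcdh9. Slitrk2, on the X chromosome, had 9.72 and 10.9 RPKM at P10 and 0.605, 1.89 and 1.33 RPKM at P28 (chrX:66652313-66653612), 8.09-fold lower in mean with a log2 change of -2.35 ± 0.41 (SE, adjusted p = 0.0125). Slitrk5, its paralog on another chromosome, had 14.4 and 11.9 RPKM at P10 and 1.87, 2.79 and 3.68 RPKM at P28 (chr14:111675147-111676271), 4.74-fold lower (adjusted p = 0.0152). Pou3f2, the neural POU factor also called Brn2, had 7.62 and 11.97 RPKM at P10 and 1.55, 1.71 and 2.19 RPKM at P28, 5.39-fold lower (adjusted p = 0.032).

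Cplx2, a complexin of conventional synapses, had 15.9 and 23.6 RPKM at P10 and 4.38, 4.11 and 5.62 RPKM at P28 (chr13:54371262-54372399), 4.19-fold lower (log2 change -1.84 ± 0.33, SE, adjusted p = 0.0133). It kept its call without P28 replicate 1 (adjusted p = 0.0459). The peak assigned to Epo, which encodes erythropoietin, had 35.6 and 31.9 RPKM at P10 and 5.18, 7.66 and 8.61 RPKM at P28, 4.72-fold lower (adjusted p = 0.0185). In RefSeq that peak overlapped Gnb2, a G protein beta subunit, and not Epo. The Smim5 peak also overlapped Recql5, and the BC017158 peak overlapped no RefSeq gene. The rule that named these falls required that the ages do not overlap. Without P28 replicate 1 the adjusted p was 0.0727 at Epo, 0.0992 at Pou3f2, 0.0561 at Smim5, 0.119 at Irf5 and 0.147 at Pcdh9, and the other 5 of these falls kept their calls.

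**Figure D3:**
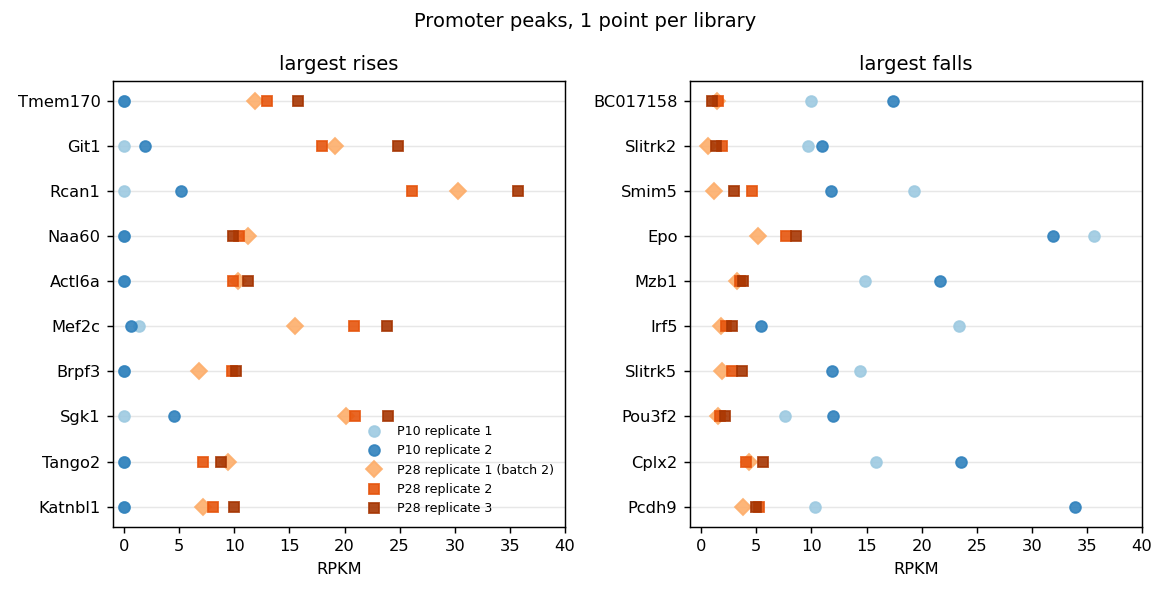
RPKM (horizontal axis, linear) at the 10 largest promoter rises (left) and the 10 largest promoter falls (right), 1 point per library, with the batch 2 library as a diamond. At the rises the P10 libraries lie between 0 and 5.15 RPKM, and at the falls the P28 libraries lie between 0.605 and 8.61 RPKM.

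Gene lists were then read against the 9956 genes, for which 15.3% rose, 0.502% fell and the median change was 0.75. Of the 65 list genes that were called, 13 kept the call without P28 replicate 1, and these are named below. A kept call does not mean that P10 was well read. Crebbp, Rplp2, Dmd, Cabp5 and Slc24a2 kept theirs with no read at P10, where 2 zeros show no spread. Cplx2 and Klf4 kept theirs with 44 and 20 reads at P10, while Gucy2e and Rcvrn, with 23 and 18, did not. Glycolysis turns glucose into pyruvate and lactate, the source of the mark. Of 31 genes of glycolysis and lactate handling, 28 had a promoter peak, of which 8 rose, none fell and 20 were not called, and 1 of the 8, Hk2, kept its call without P28 replicate 1. The change was positive in 27 of the 28, the ages did not overlap in 22 (78.6%, against 55.0% of all genes) and the median change was 0.94. The mean over these promoters was 5.42 and 7.17 RPKM at P10 and 10.9, 12.1 and 14.1 RPKM at P28. The median stayed at 0.67 to 0.88 under the other scalings, where all genes had 0.46 to 0.63. These promoters were better read at P10: 5 of the 28 had at most 3 reads in each P10 library, against 4059 of the 9956 genes. The same held for 2 of 23 clock and 10 of 34 cilium genes described below. How far the shares without overlap follow read depth was not tested.

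Among the glycolytic enzymes, Hk2, the hexokinase enriched in photoreceptors, had 5.07 and 4.42 RPKM at P10 and 16.9, 18 and 21 RPKM at P28 (chr6:82774246-82775314), 3.93-fold higher (adjusted p = 0.0124, and 0.038 without P28 replicate 1). Pfkfb3, which makes the activator of phosphofructokinase, had 3.41 and 1.24 RPKM at P10 and 9.24, 9.45 and 10.7 RPKM at P28, 4.22-fold higher (adjusted p = 0.0225, and 0.0706 without P28 replicate 1). Pgk1, an enzyme of the pay-off phase, had 3.88 and 6.78 RPKM at P10 and 14.7, 21.9 and 32.3 RPKM at P28. Slc16a3, which encodes the lactate exporter MCT4, had 1.59 and 0 RPKM at P10 and 8.78, 5.41 and 5.78 RPKM at P28. Bsg, the chaperone of these transporters, Ldhb, Mpc1 and Pdk3 were the other 4 that rose. Ldha, the dehydrogenase that makes lactate, was not among them, with 6.59 and 13.7 RPKM at P10 and 8.49, 11.04 and 11.8 RPKM at P28, and Eno1 had 23.4 and 31.2 against 27.2, 25.8 and 27.4 RPKM.

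The mitochondrial lists lay near the median of all genes. In the tricarboxylic acid cycle 2 of 19 genes rose, Idh3a and Pdha1, with a list median of 0.57. In oxidative phosphorylation 2 of 37 rose, with a median of 0.82, and none fell in either list. None of these 4 calls was kept without P28 replicate 1. Idh3a, a subunit of isocitrate dehydrogenase, had 3.26 and 6.41 RPKM at P10 and 11.8, 13.2 and 12.8 RPKM at P28 (adjusted p = 0.0378). Cytosolic ribosomal protein genes had 5 of 54 higher, none lower, and a median of 0.65, and each of the 5 was called against at most 3 reads at P10. Of these, Rplp2 kept its call without the batch 2 library, in a peak that also overlapped Pidd1.

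Photoreceptor lists lay lower. Of 40 rod genes 35 had a promoter peak, of which 5 rose and 2 fell, and the median change was 0.24, or 0.40 without P28 replicate 1. This lay below the median of all genes, and after median centring it was -0.03, where all genes had 0.48 and all peaks 0.11. The mean over rod promoters was 14.2 and 15.1 RPKM at P10 and 14.1, 17.5 and 19.5 RPKM at P28, with overlap, so these promoters were already above the mean of all genes (3.62 and 4.57 RPKM) at P10. Their peaks were CpG-poor, with a median observed over expected of 0.286 against 0.687 for all genes, and 3 of the 35 were CpG-rich.

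The 5 rod genes that rose were Guca1a, Reep6, Gucy2e, Cdhr1 and Rcvrn, of which Guca1a kept its call without P28 replicate 1 (adjusted p = 0.0386) and the others had 0.0674 to 0.0955. Guca1a, which activates guanylate cyclase when calcium drops after a flash, had 4.88 and 3.55 RPKM at P10 and 20.1, 21.0 and 26.0 RPKM at P28 (chr17:47400143-47401253), 5.30-fold higher (log2 change 2.17 ± 0.36, SE, adjusted p = 0.0114). Gucy2e, a photoreceptor guanylate cyclase, had 8.07 and 4.58 RPKM at P10 and 16.8, 19.4 and 22.4 RPKM at P28. Rcvrn, the calcium sensor recoverin, had 4.56 and 6.97 RPKM at P10 and 11.9, 15.6 and 16.5 RPKM at P28. In each of these 3 genes every P28 library lay above both P10 libraries. Grk1, the rhodopsin kinase, lay the other way in every library, with 50.5 and 44.4 RPKM at P10 and 29.1, 31.5 and 34.3 RPKM at P28, and was not called (adjusted p = 0.12). Reep6, a trafficking protein of rods, had 6.03 and 15.8 RPKM at P10 and 28.03, 30.4 and 35.5 RPKM at P28 (adjusted p = 0.0348), in a peak that also overlapped Pcsk4. Cdhr1 is a cadherin at the base of the outer segment.

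The 2 rod genes that fell were Cngb1 and Nr2e3. Cngb1, a subunit of the rod cyclic nucleotide-gated channel, had 10.3 and 12.01 RPKM at P10 and 2.00, 2.34 and 4.28 RPKM at P28 (chr8:95281321-95281845), 3.89-fold lower (adjusted p = 0.0251, and 0.0786 without P28 replicate 1). Nr2e3, a nuclear receptor that represses cone genes in rods, had 69.4 and 59.3 RPKM at P10 and 30.2, 32.8 and 36.0 RPKM at P28 (adjusted p = 0.089 without P28 replicate 1). The G protein subunit Gnat1 and the phosphodiesterase subunit Pde6b were not called, with log2 changes of 0.10 and 0.30. Crx, the photoreceptor homeodomain factor, had 13.2 and 10.9 RPKM at P10 and 9.77, 17.8 and 19.0 RPKM at P28, where the batch 2 library lay below both P10 libraries and the other P28 libraries above them.

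Of 14 cone genes with a promoter peak, 3 rose and 1 fell. By voom 3 were higher and 3 were lower, the lower ones being Gnb3, Opn1sw and Cngb3. The median change was 0.46, while the mean over these peaks went the other way, from 7.26 and 9.06 RPKM at P10 to 5.15, 7.08 and 7.19 RPKM at P28. That direction rested on Gnb3: over the other 13 genes the mean was 3.97 and 4.91 RPKM at P10 and 3.74, 5.40 and 5.65 RPKM at P28, with overlap. Opn1mw, the medium-wavelength opsin on the X chromosome, had 0 and 0.648 RPKM at P10 and 3.67, 5.55 and 7.24 RPKM at P28 (adjusted p = 0.0174). Its pooled read rate was 12.5 times higher, with a counting interval of 2.22 to 498 because P10 gave a single read. Opn1sw, the short-wavelength opsin, had 6.48 and 9.20 RPKM at P10 and 3.06, 2.92 and 1.71 RPKM at P28, in the opposite direction without overlap. It did not pass the test in limma with trended variances (adjusted p = 0.0639) and passed in voom on the recovered reads (adjusted p = 0.0124). Slc24a2, the cone exchanger of calcium, and Pde6c, the cone phosphodiesterase, were the other rises. Gnb3, the cone and ON bipolar G protein beta subunit, fell from 50.1 and 63.0 to 23.4, 28.9 and 27.3 RPKM. Opn1mw and Slc24a2 kept their calls without P28 replicate 1, and Pde6c (adjusted p = 0.0659) and Gnb3 (0.101) did not.

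At the photoreceptor ribbon synapse, where a plate-like ribbon feeds vesicles to the release site, 5 of 18 genes rose and none fell (27.8% higher, against 15.3% of all genes). Other measures of this list lay below those of all genes, with a median change of 0.41 against 0.75 and the ages not overlapping, higher at P28, in 44.4% against 55.0%. Dag1, which encodes dystroglycan, had 0 and 1.58 RPKM at P10 and 6.99, 7.29 and 7.13 RPKM at P28 (adjusted p = 0.0166). Dmd, which encodes its partner dystrophin, had no read at P10 and 2.74, 3.57 and 4.41 RPKM at P28 (adjusted p = 0.0144), a level within what 3 reads per P10 library would give. Slc17a7, which encodes the vesicular glutamate transporter VGLUT1, Lrit1 and Unc13b were the others. Dmd and Unc13b kept their calls without the batch 2 library, and Dag1 had an adjusted p of 0.0624. Of 28 genes of neuronal synapses, Slc32a1 rose and Cplx2 fell, and the median change was 0.46. The Slc32a1 call rested on 25 reads at P28 and none at P10, and was lost without P28 replicate 1 (adjusted p = 0.0833).

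Among lists of inner retinal neurons, bipolar genes had 2 rises of 13 (15.4%, as for all genes), Cabp5 and Scgn, with a median of 0.64, and Cabp5 kept its call without P28 replicate 1. Cabp5 had no read at P10, and its P28 level lay within what 3 reads per P10 library would give. None of 10 amacrine and horizontal genes and none of 10 ganglion cell genes was called by limma, and the medians were 0.01 and 0.18. By voom, which called 1332 of the 9956 genes higher and 171 lower, 1 amacrine and horizontal gene was higher and 2 were lower. No ganglion cell gene was called by voom. Both medians were below 0 under median centring (-0.26 and -0.09), quantile normalization and voom. Prox1, a homeodomain factor of horizontal and amacrine cells, had 9.50 and 6.92 RPKM at P10 and 1.38, 3.56 and 3.64 RPKM at P28 (adjusted p = 0.0633). None of 17 genes of Mueller glia, the radial glia of the retina, was called by limma or voom, with a median of 0.43, and Glul and Clu stood at adjusted p of 0.0955 and 0.0753.

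Progenitor and cell cycle genes had 6 rises and 1 fall among 21 genes with a peak, and a median of 0.70. Hmgb2, a chromatin protein of dividing cells, had 12.7 and 4.84 RPKM at P10 and 25.8, 26.6 and 34.1 RPKM at P28 (adjusted p = 0.0238). Ccne1, which encodes cyclin E1, had 1.76 and 0 RPKM at P10 and 7.91, 8.31 and 8.57 RPKM at P28 (adjusted p = 0.0215). Pcna, Mcm2, Mcm5 and Ccnb1 also rose, of which Mcm2, Mcm5 and Ccnb1, like Ccne1, had at most 3 reads at P10. The fall was at Six3, an eye field factor, from 28.2 and 14.5 to 6.33, 6.10 and 9.06 RPKM. None of the 7 kept its call without P28 replicate 1, where the adjusted p ranged from 0.0535 at Mcm5 to 0.111 at Six3. Of these 21 peaks 17 were CpG-rich.

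In the Notch list 4 of 17 rose and none fell, with a median of 0.73. Jag1, a Notch ligand, had 0 and 2.03 RPKM at P10 and 9.02, 11.4 and 13.1 RPKM at P28 (adjusted p = 0.0126), in a peak just upstream that overlapped no RefSeq gene. The ligand Dll1, the effector Hey2 and the coactivator Maml2 were the other rises, and only Jag1 of the 4 kept its call without P28 replicate 1. Genes of axon guidance had 2 rises of 28 and a median of 0.12, which turned to -0.15 after median centring. Dcc, the netrin receptor, had 0 and 1.63 RPKM at P10 and 11.9, 11.8 and 11.8 RPKM at P28 (adjusted p = 0.0121, and 0.051 without P28 replicate 1), while Unc5d, another netrin receptor, had 7.35 and 7.49 against 2.49, 3.14 and 2.66 RPKM (adjusted p = 0.0906, and 0.0132 in voom).

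Immediate early and other activity-regulated genes, which neurons switch on within minutes of stimulation, had 2 rises and 2 falls of 23 and a median of 0.01. The median was between -0.26 and -0.08 under median centring, quantile normalization, voom, scaling to reads in peaks and thinning. Klf4 fell from 16.7 and 13.5 RPKM at P10 to 3.46, 4.95 and 3.19 RPKM at P28 (3.91-fold, adjusted p = 0.012), in a peak just upstream that overlapped only Gm12506 in RefSeq. Fos fell from 31.5 and 43.7 to 14.7, 20.2 and 18.1 RPKM. Fosb, Egr1 and Nr4a1 were not called, though Nr4a1 passed in voom (adjusted p = 0.0395), with Egr1 at 26.0 and 26.0 RPKM at P10 and 16.9, 15.6 and 18.5 RPKM at P28. Atf3 rose from 4.03 and 4.27 to 12.97, 13.2 and 14.7 RPKM (adjusted p = 0.017), and Dusp1 was the other rise. Of the 4 calls Klf4 kept its own without the batch 2 library, and Atf3 had an adjusted p of 0.0502 and Fos of 0.106. Cells were dissociated alive before the assay at both ages, and the part of that step in these genes was not tested.

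Clock genes, whose products cycle daily, all had a promoter peak. Of 23, 2 rose and none fell, the change was positive in 21, the ages did not overlap in 17 higher at P28 (73.9%, against 55.0% of all genes) and the median was 0.68, against 0.75 over all genes. Hlf, a clock output factor, had 3.55 and 4.66 RPKM at P10 and 20.1, 21.7 and 24.8 RPKM at P28 (adjusted p = 0.0113, and 0.0226 without P28 replicate 1). Per3, a period gene, had 0.890 and 3.11 RPKM at P10 and 8.02, 8.21 and 7.75 RPKM at P28 (adjusted p = 0.039, and 0.113 without P28 replicate 1). Rorb had 10.6 and 7.74 against 9.28, 12.7 and 13.9 RPKM and was not called.

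Cilium and intraflagellar transport genes, which build the connecting cilium and outer segment, had 3 rises of 34 (Bbs2, Bbs9 and Arl3), none lower, and a median of 0.89. Thus 8.82% of them rose, against 15.3% of all genes, and the ages did not overlap in 25 of them, higher at P28 (73.5%, against 55.0% of all genes). By voom 7 of the 34 were higher, against 1332 of the 9956 genes, so the comparison of called shares turned. Bbs2, a subunit of the BBSome, had 1.76 and 6.92 RPKM at P10 and 15.8, 15.9 and 14.3 RPKM at P28 (adjusted p = 0.0265, and 0.0889 without P28 replicate 1, where none of the 3 kept its call). Bbs4 had 5.18 and 4.98 against 5.58, 8.23 and 11.5 RPKM and was not called. Writers and erasers of histone acylation had 5 rises of 24, none lower, and a median of 0.85. Crebbp, which encodes the acetyltransferase CBP, had no read at P10 and 6.68, 5.61 and 9.17 RPKM at P28 (adjusted p = 0.0113), within what 3 reads per P10 library would give. The deacylase genes Hdac1, Hdac9, Hdac10 and Sirt2 were the others, and of the 5 only Crebbp kept its call without P28 replicate 1. Hdac1 had 2.02 and 1.77 RPKM at P10 and 5.58, 8.54 and 7.93 RPKM at P28.

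**Figure D4:**
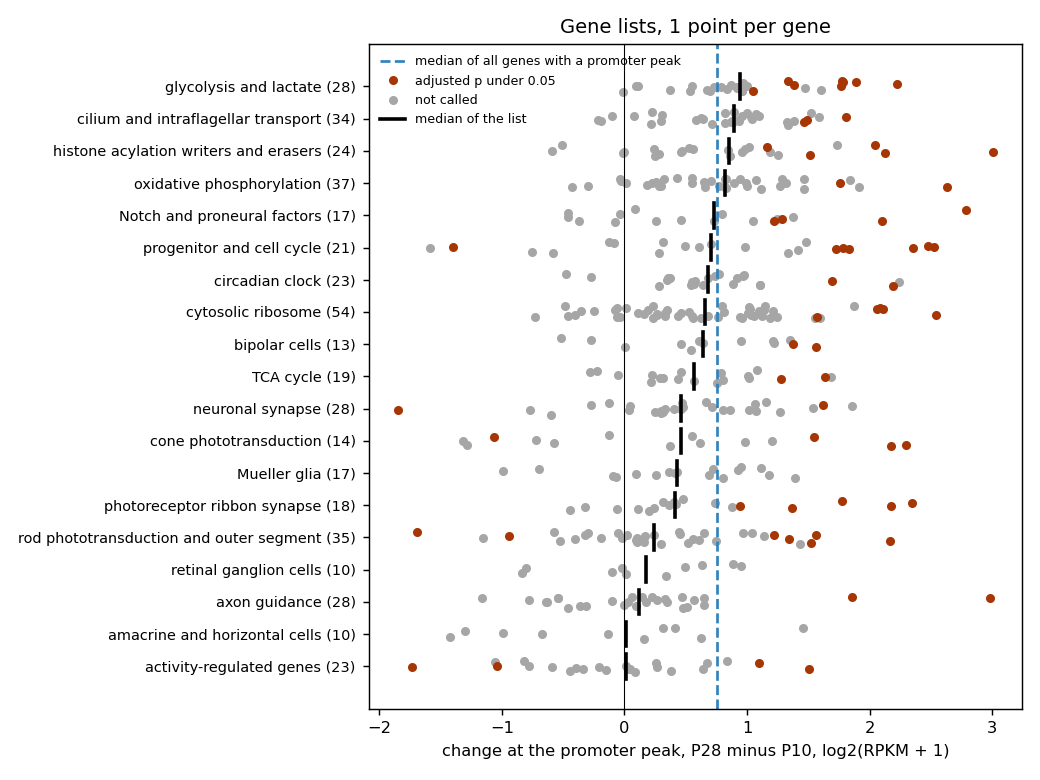
Change at the promoter peak from P10 to P28 in log2(RPKM + 1) (horizontal axis) for each gene (points) of each list with 10 or more promoter peaks (number in brackets), with called genes in dark orange and the list's median as a black bar. Glycolysis has the highest median (0.94) and activity-regulated genes and amacrine and horizontal cells the lowest (both 0.01), against 0.75 over all genes (dashed line).

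Lists of cells that could be carried along with the retina were read in the same way. For pigment epithelium 7 of 17 genes had a promoter peak, and the mean over those peaks was 1.74 and 1.67 RPKM at P10 and 1.74, 2.97 and 3.92 RPKM at P28, with none called by limma or voom. Without Rgr that mean was 1.60 and 0.835 RPKM at P10 and 1.14, 1.52 and 2.17 RPKM at P28, with overlap. Over the peaks of the 4 of 12 lens genes the mean was 0.603 and 1.20 against 2.11, 2.37 and 2.76 RPKM. None of them was called by limma, and Cryab was called by voom (adjusted p = 0.0292). For the 6 of 20 vessel genes the mean was 2.42 and 4.13 against 2.33, 2.10 and 2.03 RPKM. None of these was called by limma, and Esam, which was lower, was called by voom (adjusted p = 0.0265). Without Esam the vessel mean was 1.41 and 3.27 against 2.05, 1.90 and 1.72 RPKM, with overlap. The change was positive in 4 of the 6 vessel genes. The 8 astrocyte and oligodendrocyte promoters had a mean of 8.24 and 7.28 RPKM at P10 and 7.21, 7.56 and 8.39 RPKM at P28, with overlap, and of 1.41 to 2.13 RPKM in these libraries without Aqp1. Among them Mag rose, with 20 reads at P28 and none at P10, and lost its call without P28 replicate 1 (adjusted p = 0.102). The only microglial gene with a peak, C1qa, had a log2 change of 0.02. Their part in the results was not tested.

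Among the other genes that the study shows as examples, which are no independent evidence here, none passed in limma. Aldoa had 3.08 and 5.92 RPKM at P10 and 7.79, 9.26 and 10.2 RPKM at P28, without overlap (adjusted p = 0.138). Gsk3b, a kinase of insulin signalling, had 12.7 and 11.1 against 20.2, 21.1 and 26.2 RPKM, without overlap (adjusted p = 0.0621 by limma and 0.0491 by voom, where it passed). Kdm5b, a histone demethylase, and Vamp2, a vesicle SNARE, had log2 changes of 0.26 and 0.05. The housekeeping gene Tbp had 0 and 0.966 against 1.93, 1.81 and 2.33 RPKM, and Taco1 had 1.56 and 0 against 2.94, 2.54 and 2.38 RPKM.

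With the same symbols left out, the largest rises away from promoters were intergenic near Ermard and Cipc and in introns of Ttc39c and Ly75, the last with 2 peaks. The peak near Ermard (chr17:15099594-15100284) had no read at P10 and 14.4, 19.3 and 17.0 RPKM at P28, at least 3.00-fold higher (log2 change 4.15 ± 0.38, SE, adjusted p = 0.011). The larger Ly75 peak (chr2:60365472-60366372) had 0 and 1.75 RPKM at P10 and 26.8, 21.9 and 28.4 RPKM at P28. The largest falls by the same rule were in Gpc5, Saal1, Spryd3 and Kcnab1 and near Rab2a. The peak at the 3' UTR of Spryd3 (chr15:102115395-102116846), which also overlapped Tns2, had 27.4 and 33.7 RPKM at P10 and 2.17, 2.71 and 1.55 RPKM at P28, 14.2-fold lower (log2 change -3.34 ± 0.33, SE, adjusted p = 0.0113). The intronic Gpc5 peak, a glypican gene, had 10 and 16.4 RPKM at P10 and 0.363, 0.170 and 0 RPKM at P28. The rule that named these peaks required that the ages do not overlap.

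Some genes held many called peaks in their bodies, which are not independent of each other. Over all peaks 10.1% were higher and 3.25% lower. Of 35 peaks in Slc24a4, which encodes a sodium, calcium and potassium exchanger, 21 fell and none rose. Of 37 in Gfra1, a GDNF receptor, 18 fell, and of 83 in Ptprn2, 25 fell and 2 rose. In the other direction, 26 of 53 peaks in Itpr2, an inositol trisphosphate receptor, rose and 1 fell, and 15 of 56 in the adhesion gene Cadm1 and 14 of 32 in Tcf20 rose with none lower. These genes were chosen after their values were seen.

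The tallest peaks of the younger retina were lower at P28 on the deposited scale. To avoid choosing and measuring on the same library, the 1000 tallest peaks of P10 replicate 1 were read in the others: their mean was 46.4 RPKM in P10 replicate 2 and 24.3, 28.4 and 32.1 RPKM in the P28 libraries, and 850 of the 1000 were lower at P28. The 1000 tallest of P10 replicate 2 had a mean of 35.1 RPKM in P10 replicate 1 and 24.0, 28.1 and 31.8 RPKM at P28, with 672 lower. The 1000 tallest of P28 replicate 1 had means of 28.6 and 38.1 RPKM at P10 and 34.6 and 40.1 RPKM in the other P28 libraries, where the ages overlapped. The tallest peak of all, in an intron of the predicted gene Gm12802 (chr4:107128005-107129181), had 214.7 and 214.3 RPKM at P10 and 77.4, 80.4 and 92.6 RPKM at P28. An exonic peak of Camk2b, a subunit of a calcium-dependent kinase, went from 114.5 and 120.9 to 31.3, 37.0 and 43.3 RPKM, and an intronic peak of Ccn4, a secreted matrix protein, from 111.9 and 128.1 to 33.4, 40.9 and 46.9 RPKM. These 3 peaks were picked for their height in the P10 libraries compared here, so their values are a description. The log2 change at Gm12802 was -1.36 as deposited and -0.13 after quantile normalization, that at Camk2b was -1.65 and -1.04, and that at Ccn4 was -1.56 and -0.94. Of the 20 tallest peaks at P10, 20 were lower at P28 as deposited. After quantile normalization 17 of them were lower and 3 higher.

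**Figure D5:**
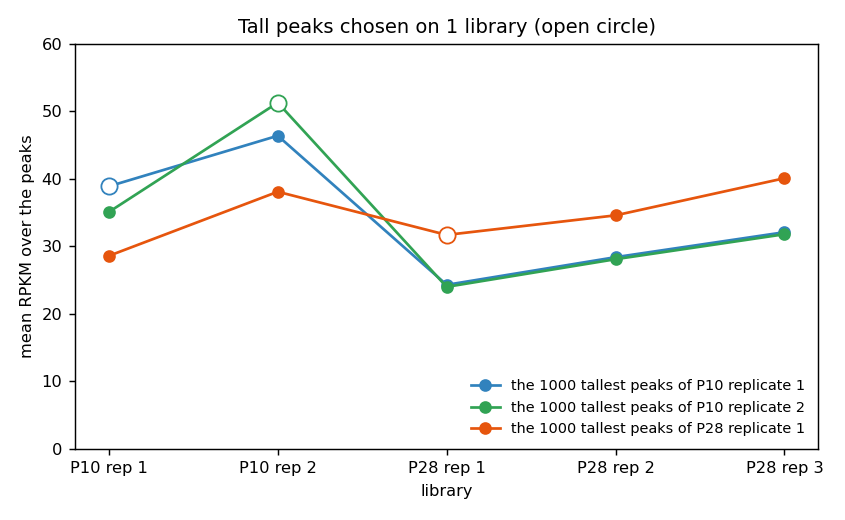
Mean RPKM over 1000 peaks (vertical axis) in each library for the tallest peaks of P10 replicate 1 (blue), P10 replicate 2 (green) and P28 replicate 1 (orange), with the library used for the choice as an open circle. Peaks chosen on P10 replicate 1 stand at 46.4 RPKM in the other P10 library and at 24.3 to 32.1 RPKM at P28, those chosen on P10 replicate 2 at 35.1 against 24.0 to 31.8 RPKM, and those chosen on P28 replicate 1 overlap between the ages.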

How the data were processed

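H3K18La CUT&Tag was analysed in 5 libraries (2 at P10, 3 at P28), with 2 P4 libraries adding to the estimate of spread. The authors mapped reads to GRCm38 with nf-core/cutandrun 3.1, called peaks with MACS, merged them over the ages and annotated them with ChIPseeker 1.34.1, with promoters from -1000 to 500 bases around a start site. The authors deposited RPKM per peak and library, normalized on windows of 10000 bases, together with their own edgeR 3.40.2 fold changes and FDR values, which were not used. Per the submitters' labels the enzyme was protein A-MNase, while the study's methods name protein A-Tn5.

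RPKM times width was a whole multiple of 1 read (tolerance 0.01) at 100% of peaks, which gave the reads. Reads without molecular identifiers give counting error only, and 3 reads were taken as the floor where none was seen. The log2(RPKM + 1) values of all 7 libraries were fitted together in limma 3.58.1 under R 4.3.3, with trended variances and Benjamini-Hochberg adjustment over 108253 peaks. This scale understates changes of low peaks. Measures with 1 value per library were compared by two-sided exact permutation tests, whose smallest p is 0.2. The study calls the replicates biological, but the number of animals behind each library is not given in the sources used here, so p-values refer to these libraries. The limma fit assumed 1 spread per peak for all 3 ages. Estimated library weights were 0.327 for each P10 library, 0.785 for each P4 library and 0.865, 10.8 and 1.62 for the P28 libraries. By these weights the P10 libraries varied more than the fit assumed, so its p-values can be too small.

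The lists (24), the threshold of 0.05 and the peaks described were chosen with earlier results of these data known, including that 0.01 calls 2 peaks. Named were the 10 largest promoter rises and falls and the 5 largest elsewhere, among called peaks whose ages do not overlap, with at least 10 reads at the higher age and without Gm or Rik symbols. The rule also covered the 2 smallest adjusted p and the lowest change of each list and 11 examples of the study, of which the text describes most. Other genes were named after their values were seen, to complete the called members of a list. Promoter sequences came from RefSeq (GRCm38.p6), in which 7984 of 9956 genes matched by symbol. Scripts were tested on simulated data. Alternatives covered the pseudocount, filters, scalings, voom, library weights, thinning, the replicate block and leaving out each library. Python 3.11.15 with scipy 1.17.1 was used.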

Additional observations from a re-analysis of the deposited data

How the results depend on the processing

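The number of called peaks depended on nearly every setting. The peaks called higher numbered 10942 and, in the same order, those called lower 3523. They numbered 4459 and 2011 among peaks at or above the median signal, 3373 and 1438 among well-read peaks (a filter added after seeing the data), 4534 and 2852 after scaling to reads in peaks, 1803 and 2510 after quantile normalization, 8097 and 7920 after median centring, 6573 and 13973 by voom on the recovered reads, 3652 and 848 with estimated library weights, 1019 and 1404 after thinning and 7811 and 2165 with the 5 libraries alone. With pseudocounts of 0.1 and 5 they were 10067 and 1444, and 13325 and 5686. At an adjusted p under 0.01 limma called 2 and 0, beside 35202 peaks at an unadjusted p under 0.05. Leaving out 1 library gave 1901 to 32656 higher and 406 to 7644 lower. The upper ends came from the fit without P10 replicate 2, which leaves a single P10 library, so they are not read as calls. With 1 P28 library left out the counts were 1901 to 4158 higher and 406 to 701 lower. When any library was left out, the promoter share stayed 4.2 to 6.76 points higher at P28 and the promoter excess 0.169 to 0.396 higher. In the same fits the CpG-rich over CpG-poor ratio stayed 0.338 to 0.444 higher, while the median change over all peaks ranged from 0.154 to 0.6. The promoter excess was 0.498 higher among peaks at or above the median signal and 0.184 higher with a pseudocount of 5. The share of reads in peaks, 44.1% ± 11.3 (SD, n = 2) at P10 and 50.1% ± 7.4 (SD, n = 3) at P28, differed by 6.02 points, by -1.98 points without P10 replicate 1 and by up to 14.0 points without P10 replicate 2. Of the 104 named peaks 63 were called, and none of these changed direction. Of the 63, 29 lost the call without P28 replicate 1, 37 without P28 replicate 2, 36 without P28 replicate 3, 23 after quantile normalization and 4 by voom. With fewer samples the fit has less power by construction, and the cause of the other changes was not tested. With the replicate block, 9 peaks were called higher and 22 lower, and 60 of the 63 lost the call. Deviations from the age mean correlated at 0.0469 and 0.0229 between P10 and P28 libraries of the same number. Between libraries of different number the values ran from -0.0469 to 0.0367. With 2 P10 libraries of few reads per peak, these values cannot decide whether the replicates were paired.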

Other observations

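Of the 20 tallest P28 peaks, ranked on the libraries compared, 5 were called higher, 2 lower and 13 neither, and in 14 the mean was higher at P10. The 5 are described here after their values were seen. An intergenic peak nearest A730013G03Rik had 6.53 and 8.56 RPKM at P10 and 66.4, 57.99 and 67.5 RPKM at P28. An intronic peak of Mpdz, a scaffold of the apical junction of photoreceptors and glia, had 8.34 and 12.7 RPKM at P10 and 56.9, 68.1 and 84.2 RPKM at P28 (chr4:81423539-81423971). An intronic peak of Ncam1, the neural cell adhesion molecule, had 21.9 and 31.5 RPKM at P10 and 61.0, 62.3 and 74.7 RPKM at P28. Promoter peaks of Wdr17 and Iqsec1, the latter an exchange factor for Arf GTPases, were also among the 20 tallest at P28. Wdr17 had 36.1 and 22.6 RPKM at P10 and 53.7, 62.8 and 77.0 RPKM at P28, and Iqsec1 had 27.1 and 37.98 against 64.3, 56.9 and 73.2 RPKM. Of the 5, A730013G03Rik and Mpdz kept their calls by limma without P28 replicate 1 (adjusted p = 0.0132 for each), and the other 3 did not, with adjusted p of 0.0772 to 0.109.

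Promoters of different transcript types differed in the same table. Mean RPKM over 11100 protein-coding promoter peaks was 3.76 and 4.79 at P10 and 6.05, 6.58 and 7.57 at P28, without overlap. Over 1119 promoter peaks of lincRNA transcripts it was 4.18 and 6.13 at P10 and 4.53, 5.44 and 6.20 at P28, with overlap.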
